A study of Mus musculus with 10 samples.

Results

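The genes described here are 9 genes of the natriuretic peptide and nitric oxide pathways, read by 12 probe sets of the 20380 that carry a single gene symbol on the array. They were the receptor genes Npr1, Npr2 and Npr3, the peptide genes Nppb and Nppc, the nitric oxide synthase genes Nos1, Nos2 and Nos3, and the kinase gene Prkg1. All 9 symbols were found, and no probe set was removed by a filter on low signal. Npr1 and Nos3 were the reason for the choice, because both stood near the top of a ranking of 12393 genes by p in the comparison of the pressure groups. Their difference between the groups is therefore given as a description, without a test.

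RNA came from the optic nerve head, the place where the axons of retinal ganglion cells leave the eye, of C57Bl/6 male mice aged 6 to 8 weeks. In the high IOP group (IOP, intraocular pressure) a saline-filled pipette in the anterior chamber had held the right eye at 30 mmHg for 1 h, and the tissue was taken 3 days afterwards. The control group was the left eye of the animals, which had no operation. Each group had 5 arrays, each with a pool of 2 nerve heads, from 10 mice in all, so side of the body, cannulation and pressure cannot be told apart, and a control eye shared its animal with a treated one.

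Natriuretic peptides and nitric oxide are separate signals that end in the same messenger, cyclic GMP. A peptide that binds a receptor of the guanylyl cyclase type makes the receptor itself produce cyclic GMP, whereas nitric oxide, which synthases release from arginine, enters the cell and switches on a soluble guanylyl cyclase. Cyclic GMP activates protein kinase G, which relaxes vascular smooth muscle, and phosphodiesterases break the messenger down. In the eye these pathways are known for their part in the tone of vessels and in the outflow of aqueous humour.

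The 3 receptors are shown first by their promoters, as a description of the letters. The windows run from 250 bases before to 50 bases after the RefSeq start on GRCm38.p6, all on the letters of the gene's own strand. Npr1 lies at chr3:90465817-90466116 on the minus strand, Npr2 at chr4:43631685-43631984 on the plus strand and Npr3 at chr15:11907322-11907621 on the minus strand. Capitals mark the GC box GGGCGG (or CCGCCC on the other strand) and the element CACCC (or GGGTG), which overlap in Npr1.
Npr1: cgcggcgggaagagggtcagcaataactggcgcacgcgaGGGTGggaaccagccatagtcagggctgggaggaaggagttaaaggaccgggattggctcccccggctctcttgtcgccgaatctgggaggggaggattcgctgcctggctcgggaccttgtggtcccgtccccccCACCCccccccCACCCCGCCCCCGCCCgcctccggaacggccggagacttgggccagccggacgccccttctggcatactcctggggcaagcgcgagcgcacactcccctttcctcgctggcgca
Npr2: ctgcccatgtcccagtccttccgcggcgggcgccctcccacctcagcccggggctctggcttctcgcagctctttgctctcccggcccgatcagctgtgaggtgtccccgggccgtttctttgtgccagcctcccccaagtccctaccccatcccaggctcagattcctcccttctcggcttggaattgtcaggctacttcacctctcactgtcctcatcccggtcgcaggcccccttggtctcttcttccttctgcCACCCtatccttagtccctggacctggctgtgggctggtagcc
Npr3: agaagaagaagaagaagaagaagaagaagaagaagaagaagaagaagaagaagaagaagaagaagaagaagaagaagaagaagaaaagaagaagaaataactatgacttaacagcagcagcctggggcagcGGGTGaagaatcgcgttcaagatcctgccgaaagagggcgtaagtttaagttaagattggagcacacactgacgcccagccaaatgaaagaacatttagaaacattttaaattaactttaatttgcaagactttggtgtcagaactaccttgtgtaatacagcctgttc
The Npr1 window held 69.7% G and C and 26 CG pairs, the Npr2 window 64.0% and 13, and the Npr3 window 39.0% and 6, where the median of 32851 mouse promoter windows was 52.7% and 7. The GC box had 2 matches in Npr1 and 0 in Npr2 and Npr3, and 35.7% of all windows hold one. CACCC had 3 matches in Npr1 and 1 in each of the others, and 57.5% of all windows hold one. Of the 9 genes 7 had a window. TATAAA, which 13.6% of all windows hold, was found in the windows of Nppb and Nppc, the peptide genes, 31 and 29 bases before the start, and in none of the receptors. These matches describe the letters, no binding was measured, and a link to the difference between the groups was not tested.

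Across the array, signal is the brightness of a probe set on a linear scale, so it compares samples for one probe set and does not rank one gene's abundance against another's. Array medians lay between 414 and 475 and lower quartiles between 59.9 and 67.2. The summed signal of 8 astrocyte markers was 54250 to 60898 in high IOP arrays and 55559 to 60350 in control arrays, led by Gja1 and Gfap. Astrocyte transcripts were thus present, which does not by itself identify the nerve head. Of the 8 astrocyte markers 6 were lower in high IOP, with a median log2 fold change of -0.04. Aqp4, with the smallest p of them, stood at -0.30, and its other probe set at -0.43. The 7 myelin markers, led by Mbp and Mobp, summed to 39062 to 58494 in high IOP arrays and 48537 to 63917 in control arrays, and all 7 were lower in high IOP by value, with a median log2 fold change of -0.14. The lowest myelin sum was that of high IOP replicate 1. Those of high IOP replicates 2 to 5, from 50051 to 58494, lay within the control range. Markers of neighbouring tissue were present and uneven. The sum of 9 photoreceptor markers, with Sag and Gnat1 brightest, ran from 1071 to 7760 in high IOP arrays and from 642 to 7304 in control arrays, and that of 6 pigment cell markers, with Dct and Tyrp1 brightest, from 14087 to 21842 in high IOP arrays and from 9646 to 31278 in control arrays. Of the photoreceptor markers 7 of 9 had a log2 fold change above 0, where 47.3% of all genes did. Their median was 0.39, the highest of the 10 marker lists, and Prph2, with the smallest p of them, stood at 0.19. Of the pigment cell markers 4 of 6 were higher, and Tyr, with the smallest p of them, stood at -0.37. No marker of these lists passed the limma test, nor did any of the 12393 genes (0% called). The part of tissue content in the results was not tested. High IOP replicate 1 stood apart, with a mean correlation of 0.974 with the other arrays, where each of the others had 0.987 to 0.989.

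The receptor gene Npr1 was higher in every high IOP pool than in any control pool. Npr1 encodes guanylyl cyclase-A, the receptor of atrial and B-type natriuretic peptide. Its signal was 208, 137, 147, 158 and 135 in high IOP replicates 1 to 5, against 102, 85.2, 60.6, 85.2 and 90.4 in control replicates 1 to 5. The lowest high IOP array, replicate 5, thus lay above the highest control array, replicate 1. Control replicate 3, at 60.6, lay under the lower quartile of its array, 64.4. Npr1 had no other probe set with a single gene symbol, so no second reading was available. The means were 157 ± 29.9 in high IOP and 84.6 ± 15.0 in control tissue (SD, n = 5 each), a ratio of 1.85. On the log2(signal + 16) scale, used for every log2 fold change given, the difference was 0.78, or 1.72-fold. Without high IOP replicate 1, which had the highest Npr1 signal, the log2 fold change was 0.68, and over all 10 arrays left out in turn it ran from 0.68 to 0.84. Npr1 was the gene with the smallest p of all, followed by Akap3, Drc1 and Serpinc1, and with limma over 12393 genes 0 passed an adjusted p of 0.05 (0% called). Before adjustment, 492 genes had a p under 0.05. In whole tissue a change in the number of cells that make a transcript cannot be told apart from a change in RNA per cell.

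**Figure D1:**
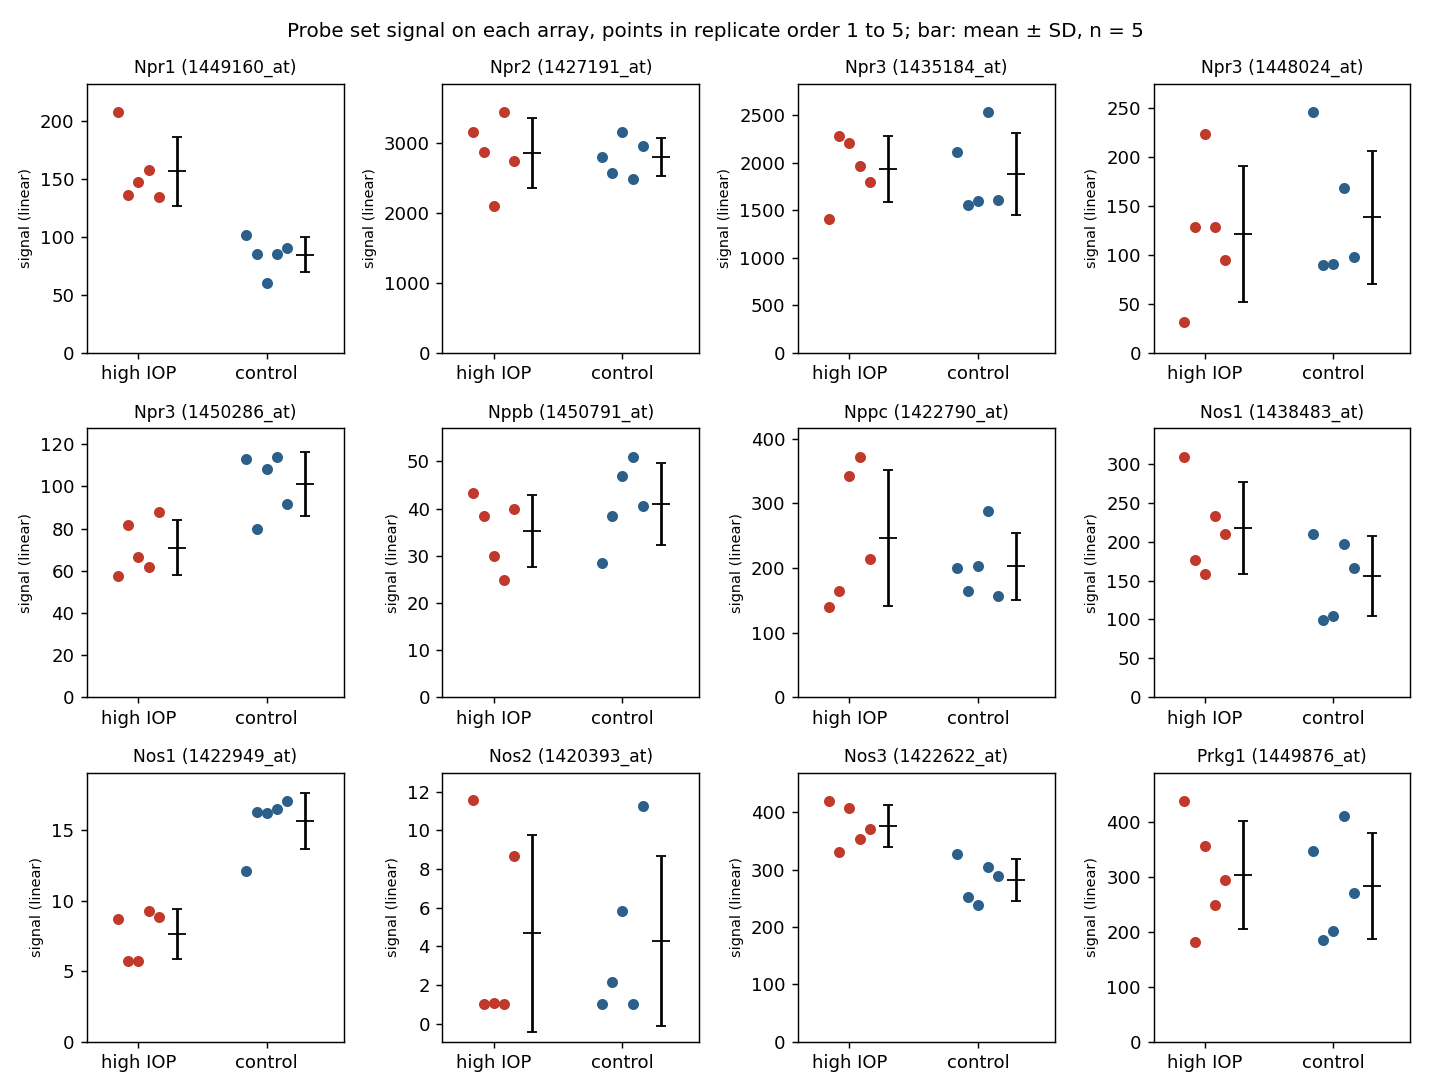
Signal (linear scale) of the 12 probe sets of the 9 genes in high IOP arrays (left, red) and control arrays (right, blue), with the mean ± SD (n = 5) as black bars. Npr1, Nos3 and the dim Nos1 probe set 1422949_at have groups that do not overlap, the first pair higher and the last lower in high IOP.

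The other receptors overlapped between the groups. Npr2 encodes guanylyl cyclase-B, the receptor of C-type natriuretic peptide. Its signal was 3157, 2869, 2106, 3442 and 2751 in high IOP replicates 1 to 5, against 2800, 2580, 3157, 2490 and 2957 in control replicates 1 to 5. High IOP arrays held both the highest and the lowest value, and the log2 fold change was 0.02 (95% confidence interval -0.27 to 0.31, limma adjusted p = 0.978). The interval allowed at most a 1.24-fold increase.

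Npr3 encodes the clearance receptor, which lacks the cyclase part and removes peptides from the surroundings. Its 3 probe sets did not move alike. The brightest, 1435184_at, had a signal of 1410, 2280, 2207, 1969 and 1795 in high IOP replicates 1 to 5, against 2115, 1556, 1597, 2528 and 1608 in control replicates 1 to 5, with a log2 fold change of 0.05 (interval -0.33 to 0.42, limma adjusted p = 0.963). The highest value was a control and the lowest a high IOP array. Probe set 1450286_at was dimmer, with 57.4, 81.7, 66.3, 61.7 and 87.6 in high IOP replicates 1 to 5, against 113, 79.6, 108, 114 and 91.4 in control replicates 1 to 5. All 5 high IOP arrays lay below the control median of this probe set and 3 lay below every control. Its log2 fold change was -0.43 (interval -0.71 to -0.15), but it did not pass over 20380 probe sets (limma adjusted p = 0.832), of which 0 passed (0% called). The remaining probe set, 1448024_at, spanned 7.89-fold over the 10 arrays, from 31.1 in high IOP replicate 1 to 245 in control replicate 1. Its log2 fold change, -0.25 (interval -1.14 to 0.64, limma adjusted p = 0.892), was 0.09 without high IOP replicate 1.

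The peptide genes did not pass the limma test over all genes, and neither did any other gene (0% called). Nppb encodes B-type natriuretic peptide, a ligand of the Npr1 product. It was dim, with a signal of 43.3, 38.5, 29.9, 24.8 and 39.9 in high IOP replicates 1 to 5, against 28.4, 38.4, 46.9, 51.0 and 40.6 in control replicates 1 to 5. Of the high IOP arrays 1 lay above the control median. The log2 fold change was -0.15 (interval -0.45 to 0.15, limma adjusted p = 0.849), -0.07 without high IOP replicate 4 and -0.24 without control replicate 1. The related ligand gene Nppa, which encodes atrial natriuretic peptide, stood at 0.03.

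Nppc encodes C-type natriuretic peptide, the ligand of the Npr2 product. Its signal was 140, 164, 342, 372 and 214 in high IOP replicates 1 to 5, against 200, 164, 203, 288 and 156 in control replicates 1 to 5. High IOP replicates 3 and 4 were the highest of the 10 arrays and replicate 1 the lowest, so the high IOP group spread over the whole control range. The log2 fold change was 0.20 (interval -0.38 to 0.79, limma adjusted p = 0.875). It ran from 0.04 without high IOP replicate 4 to 0.37 without high IOP replicate 1.

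**Figure D2:**
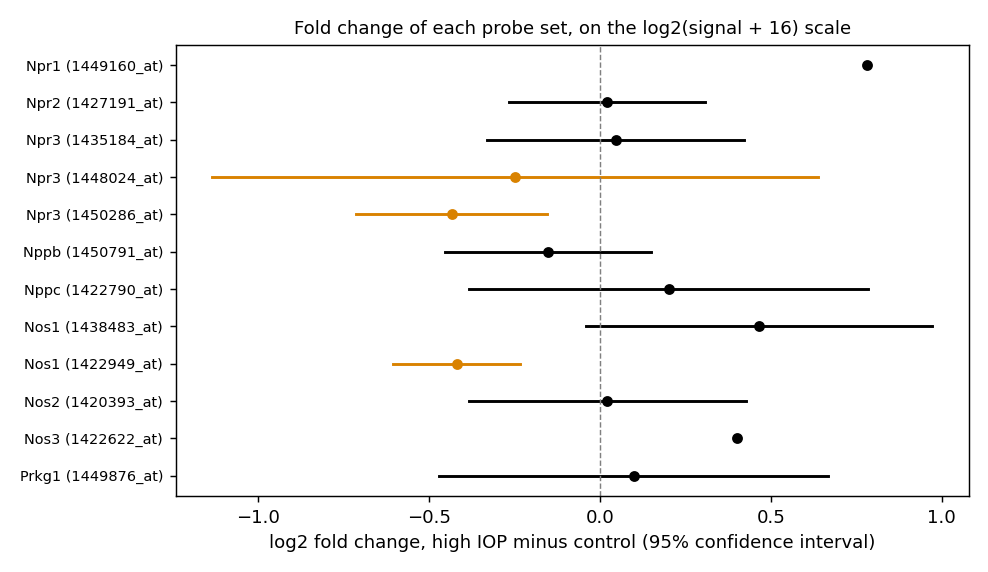
Log2 fold change (high IOP minus control) of each probe set on the log2(signal + 16) scale, with its 95% confidence interval, except for Npr1 and Nos3, which were chosen from this comparison. Black marks the brightest probe set of a gene and orange the others. The brightest Nos1 probe set stands at 0.47 and the dim one at -0.42.

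Nos3 was the synthase that separated the groups upward. Nos3 encodes the endothelial nitric oxide synthase, the form that the lining of blood vessels uses. Its signal was 419, 331, 408, 354 and 371 in high IOP replicates 1 to 5, against 327, 252, 238, 305 and 289 in control replicates 1 to 5. The lowest high IOP array, replicate 2, stood just above the highest control array, replicate 1. Like Npr1, Nos3 had no other probe set with a single gene symbol. The means were 376 ± 36.9 in high IOP and 282 ± 36.8 in control tissue (SD, n = 5 each), a ratio of 1.33. The log2 fold change was 0.40, and between 0.34 and 0.45 with each array left out. In the ranking of genes by p it stood at 17, after Stil, Trim35 and Insrr and before Zgpat, Flt3 and Casq2.

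The probe sets of Nos1, the neuronal nitric oxide synthase, pointed in opposite directions. The brighter, 1438483_at, had a signal of 309, 176, 158, 233 and 210 in high IOP replicates 1 to 5, against 210, 98.9, 105, 197 and 166 in control replicates 1 to 5. Of the high IOP arrays 4 lay above the control median, and the groups overlapped. Its log2 fold change was 0.47 (interval -0.04 to 0.97, limma adjusted p = 0.849), and 0.34 without high IOP replicate 1. The other, 1422949_at, had only 8.70, 5.73, 5.72, 9.29 and 8.81 in high IOP replicates 1 to 5, against 12.1, 16.3, 16.2, 16.5 and 17.0 in control replicates 1 to 5. Every high IOP array lay below every control array. The means were 7.65 ± 1.77 in high IOP and 15.6 ± 1.99 in control tissue (SD, n = 5 each), a ratio of 0.490. The log2 fold change was -0.42 (interval -0.61 to -0.24), and -0.96 with 1 in place of 16 added before the log. By p this probe set stood at 2 among 20380, with a limma adjusted p of 0.832. All of its values lay far below the lower quartile of their arrays, and whether they were above background was not known. Of the 4956 genes with several probe sets, 48.6% had probe sets of opposite sign, so a disagreement of sign such as that of Nos1 and Npr3 was common.

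Nos2, the inducible synthase of inflammatory cells, had hardly any signal. Its values were 11.6, 1.00, 1.08, 1.00 and 8.66 in high IOP replicates 1 to 5, against 1.00, 2.14, 5.85, 1.00 and 11.3 in control replicates 1 to 5. Both groups held arrays at 1.00 and arrays near 11, and the log2 fold change of 0.02 (interval -0.38 to 0.43, limma adjusted p = 0.985) gives no information on a transcript at this brightness.

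Prkg1 encodes protein kinase G type I, the kinase on which both pathways meet. Its signal was 437, 182, 355, 249 and 294 in high IOP replicates 1 to 5, against 347, 186, 201, 410 and 271 in control replicates 1 to 5. The groups covered almost the same range, with a log2 fold change of 0.10 (interval -0.47 to 0.67, limma adjusted p = 0.944) and -0.04 without high IOP replicate 1. Among the controls, replicates 1, 4 and 5 lay above replicates 2 and 3 in Prkg1, in Nos3 and in the brighter Nos1 probe set alike.

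Of the 12 probe sets 3 had groups that did not overlap, where 0.662% of all probe sets did. By gene, 8 of 9 had a log2 fold change above 0, where 47.3% of all genes did. Npr1 and Nos3 were chosen from this same comparison, so nothing is read from these counts. High IOP replicate 1 was the highest array in 5 of the 12 probe sets (those of Npr1, Nos2, Nos3 and Prkg1 and the brighter one of Nos1) and the lowest in 4 (all 3 of Npr3 and that of Nppc). Over all probe sets this array was the highest or the lowest in 47.3% of cases, where each of the other 9 was in 11.3% to 25.2%. Without it the log2 fold change of Nos3 was 0.36 and that of the dim Nos1 probe set -0.44.

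The other genes of the pathway showed little difference between the groups. Of 58 listed genes 42 were measured, and 18 were higher and 24 lower in high IOP, with a median log2 fold change of -0.02 where that of all genes was -0.01. None passed the limma test over all genes (0% called), and 1 of 42 had an unadjusted p under 0.05 (2.38%), where 3.97% of all genes did. That gene was Pde2a, a phosphodiesterase that cyclic GMP itself stimulates. Its signal was 364, 284, 249, 313 and 270 in high IOP replicates 1 to 5, against 245, 162, 194, 241 and 225 in control replicates 1 to 5. The groups did not overlap, although high IOP replicate 3 and control replicate 1 nearly met, as for 0.629% of all genes. Its log2 fold change was 0.45 (interval 0.16 to 0.74, limma adjusted p = 0.849) and 0.37 without high IOP replicate 1.

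By role, the phosphodiesterases had 4 of 7 members higher, and besides Pde2a they included Pde10a at 0.24, Pde1c at -0.31 and Pde3a at -0.40. Another probe set of Pde1c stood at 0.01. The other probe sets of Pde3a stood at -0.06 and -0.05, and those of Pde10a at 0.06 and 0.25. The other guanylyl cyclases had 1 of 4 members higher. Gucy1b1 and Gucy1a1, the subunits of the cyclase that nitric oxide switches on, stood at -0.41 and -0.14, and another probe set of each had the same sign (-0.20 and -0.15). Gucy1b1 had a signal of 184 to 662 in high IOP arrays and 350 to 614 in control arrays, with its lowest value in high IOP replicate 1, and without that array its log2 fold change was -0.20. Gucy2e, a retinal cyclase, stood at 0.22, and at -0.02 without control replicate 3, its lowest array. Gucy2c, an intestinal receptor cyclase, stood at -0.05. Among genes of peptide processing and clearance 2 of 6 were higher, with Mme, the neutral endopeptidase neprilysin, at 0.30, the proteases Corin, Pcsk6 and Furin at -0.15, -0.10 and -0.03, and all intervals across 0. The interval of Mme ran from -0.40 to 1.01, and its other probe set stood at 0.09.

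Genes that supply arginine and the cofactor tetrahydrobiopterin had 7 of 10 members higher, all within 0.10 of 0 by the brightest probe set. Spr and Qdpr, enzymes of tetrahydrobiopterin synthesis and recycling, stood at 0.10 and -0.05, Ddah2, which removes natural inhibitors of the synthases, at 0.05, and the arginine transporter gene Slc7a2 at -0.08. Another Qdpr probe set stood at -0.26. The other probe sets of Slc7a2 had the opposite sign, at 0.14 and 0.18. Synthase regulators had 2 of 6 members higher. Cav1, the caveolin that holds the endothelial synthase inactive, stood at -0.18 (interval -0.44 to 0.08), Nosip at 0.12, Cav3 at -0.07 and Akt1 at -0.02. Protein kinase G targets and partners had 2 of 9 members higher, with the myosin light chain kinase gene Mylk at -0.17 (other probe sets -0.26 and 0.04), the channel gene Trpc6 at -0.12, Rhoa at -0.07 and Mrvi1, which encodes a kinase substrate at calcium stores, at 0.10. For every gene named in these lists the limma adjusted p was 0.849 or more.

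**Figure D3:**
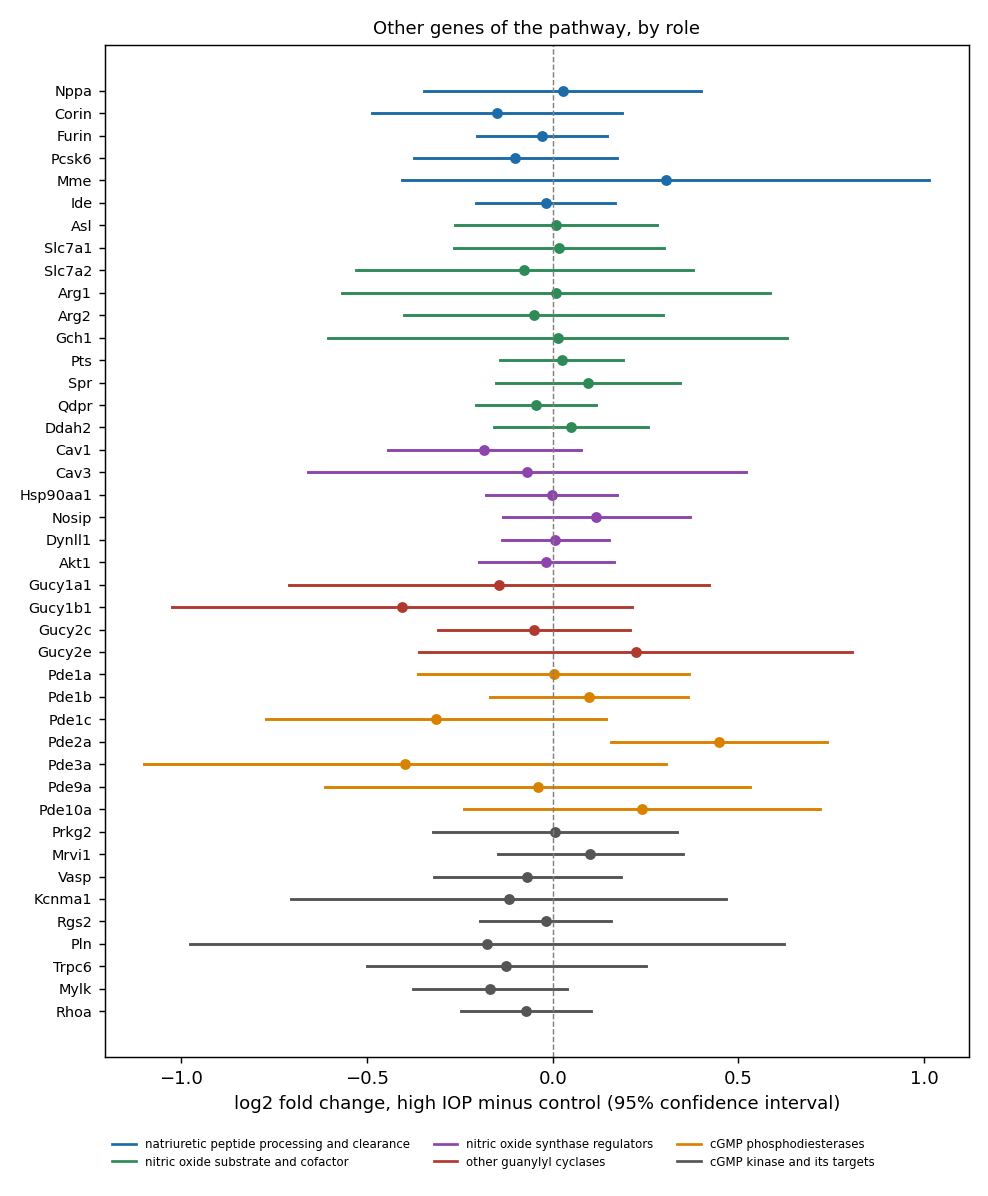
Log2 fold change (high IOP minus control) with 95% confidence interval for the 42 measured genes of the pathway other than the 9 described, coloured by role. Only the interval of Pde2a leaves out 0.

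Endothelial markers were set beside Nos3 because this cell type is its known site of expression. All 20 markers were measured and the lowest signal of any was 46.2, so none was at 0. Their sum was 29558 to 39602 in high IOP arrays and 25146 to 37978 in control arrays. The log2 fold change was above 0 for 13 of 20 markers, where 47.3% of all genes were, with a median of 0.11. Of the 20, 3 had an unadjusted p under 0.05, where 3.97% of all genes did. None passed the limma test over all genes, as no gene did (0% called). Vwf and Cldn5, the brightest, stood at 0.36 and 0.18. The score of the list, its mean log2 deviation per array, was -0.31, -0.19, 0.42, 0.20 and 0.12 in high IOP replicates 1 to 5, against 0.35, -0.41, -0.11, 0.08 and -0.14 in control replicates 1 to 5. Controls with a higher score thus tended to have a higher Nos3 signal, while high IOP replicate 1 combined the lowest score of its group with the highest Nos3 signal. With the score as a covariate the log2 fold change was 0.78 for Npr1, 0.045 for Npr2, -0.014 for the brightest Npr3 probe set, -0.11 for Nppb and 0.086 for Nppc. It was 0.44 for the brighter Nos1 probe set, 0.067 for Nos2, 0.38 for Nos3 and 0.036 for Prkg1. The values of Nppc and Prkg1 were thus less than those without the score, 0.20 and 0.10. In the pathway lists Pde2a stood at 0.44 and Gucy1b1 at -0.55 with the score, against 0.45 and -0.41 without it. The part of endothelial content in these results was not tested. The 13 mural cell markers, of smooth muscle and pericytes, summed to 26543 to 31842 in high IOP and 22950 to 35504 in control arrays, with 8 of 13 higher and a median of 0.05. Acta2 and Rgs5, the brightest, stood at -0.05 and -0.11, and Smtn, at 0.52, had the smallest p. Another Acta2 probe set stood at 0.20, and the other probe sets of Rgs5 ran from -0.50 to -0.02. The part of mural cells in these results was not tested.

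**Figure D4:**
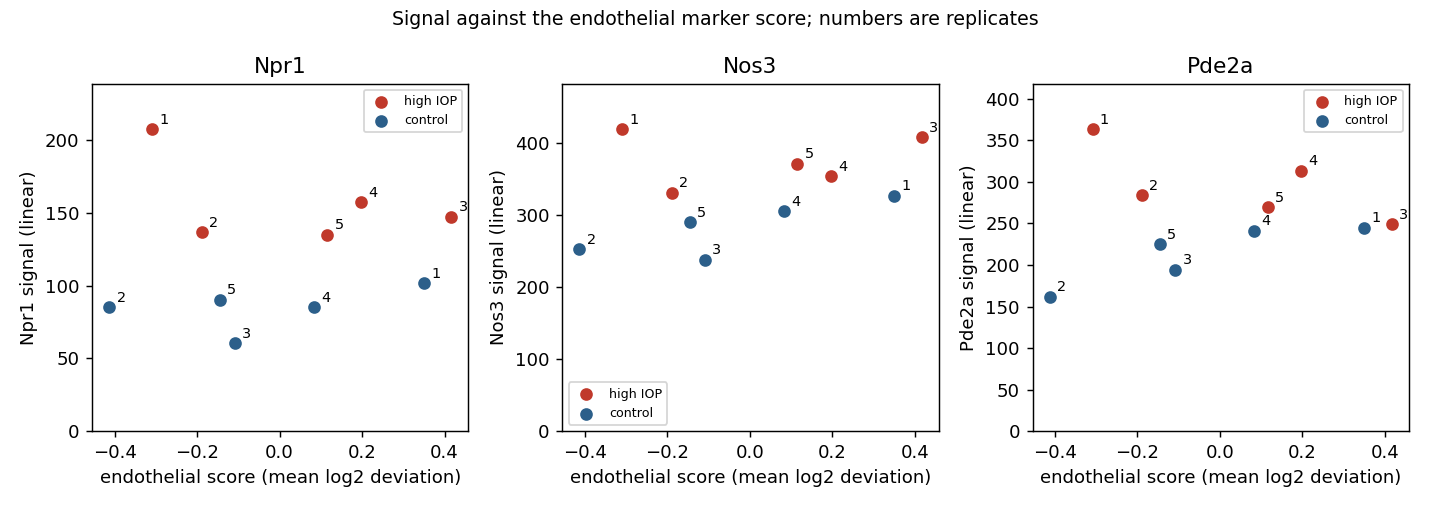
Signal (linear scale) of Npr1, Nos3 and Pde2a against the endothelial marker score (mean log2 deviation of 20 genes) on each array, numbered by replicate, with high IOP in red and control in blue. Scores of the groups overlap, from -0.31 to 0.42 in high IOP and from -0.41 to 0.35 in control arrays, and high IOP replicate 1 is the highest array for all 3 genes.

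Likeness to a gene was taken as the Pearson correlation of deviations from the group means over the 10 arrays, among 6197 genes at or above the median signal, so that the difference between groups was left out. These are the highest of 6197 values per gene from arrays that share tissue content and amplification, and are given as descriptions. Npr1 was most like Ran, Rps4x, Atp11a, Snrnp48 and Efr3a (0.91, 0.89, 0.89, 0.88 and 0.88). Nos3 was most like Tinagl1, Cygb, Edn3, Rps6ka3 and Prkce (0.98, 0.91, 0.90, 0.89 and 0.89). The log2 fold changes of Tinagl1 and Edn3 were both -0.01 to 0.01, unlike that of Nos3. Cygb, which encodes cytoglobin, also headed the list of Prkg1 (0.96), before Pla2g5 and P2ry14 (0.92 each). Nos1 was most like Ptbp1, Ptgis, the prostacyclin synthase gene, and Crtap (0.95, 0.92 and 0.92), and Nos2 most like Map6, Nol12 and Fgfrl1 (0.91, 0.90 and 0.90), which at its signal rests on a few arrays. For Npr2 the genes were Cox18, Eif3c and Ppp2r1a (0.98, 0.96 and 0.95) and for Npr3 Rilpl2, Mustn1 and Ptgr1 (0.96, 0.93 and 0.92). Nppb had Ubxn6, Nudt22 and Hdgfl3 (0.90, 0.88 and 0.86) and Nppc Shisa2, Gnpnat1 and Trim34a (0.95, 0.94 and 0.94).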

How the data were processed

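The labels describe total RNA from pools of 2 optic nerve heads, of which 30 ng was amplified (Ovation) and labelled with biotin. Each of the 5 pools of a group had its own array. The authors deposited probe set intensity on a linear scale, from 0.69 to 20168, for 22690 probe sets. How the authors summarised, background-corrected and normalized these values is not stated in the labels, and no detection calls were used. With 5 arrays a group, precision rests on that number. Values were put on the log2(signal + 16) scale. Of the probe sets 20380 had 1 gene symbol in the platform annotation, and the one with the highest mean log2 value stood for each of 12393 genes. Other probe sets of a member came from a fit over all 20380. High IOP minus control was fitted with limma 3.58.1 in R 4.3.3 without covariates, with Benjamini-Hochberg adjustment over the whole table, and tested on simulated data. Preparation and plots used Python 3.11.15, pandas 2.3.3 and Matplotlib 3.10.9.

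The 9 genes, the pathway lists and the marker lists were chosen with earlier results of these data known. Genes were named by rule: all 9 with every probe set, up to 4 per pathway list by p, the brightest and lowest-p markers of the lists used, and the genes most like each of the 9, 5 for Npr1 and Nos3 and 3 for the rest. Markers of microglia, fibroblasts, muscle and fat, given in the closing section, were also scored. Promoters came from RefSeq on GRCm38.p6, and the windows are not tied to the probe sets.

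Replicate numbers are shared between the groups, but the labels do not say that equal numbers are the same mice. The alternatives were quantile normalization, all probe sets, leaving out genes under the median signal, a pseudocount of 1, a trended robust variance, a replicate block, the endothelial score as a covariate, and leaving out each array. A pseudocount of 1 and leaving out arrays were added for the other probe sets after seeing the data.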

Additional observations from a re-analysis of the deposited data

Results flagged for a closer look

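In 6 of 72 groups of 5 arrays examined, 1 array lay far from the other 4, by a gap of more than 0.71 of the group's range. Chance gives about 1 in 20. For the dim Nos1 probe set control replicate 1, at 12.1, was the lowest control, with a gap of 0.846 of the range, and still lay above every high IOP array. Corin was lowest in high IOP replicate 3, with a gap of 0.758. Furin was highest in high IOP replicate 3, with a gap of 0.724. Spr was lowest in control replicate 5, with a gap of 0.835. Slc7a2 was lowest in high IOP replicate 1, with a gap of 0.749. Gucy2e was lowest in control replicate 3, with a gap of 0.721.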

How the results depend on the processing

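The count of genes past a limma adjusted p of 0.05 was 0 under each of the 17 alternatives run. Npr1 and Nos3 kept their direction wherever they had a value. Because every high IOP array lay above every control array for these genes, no array left out could reverse it. Leaving out genes under the median signal removes both, with every member but Npr2 and Npr3. A gene's log2 fold change could not change with all probe sets, a trended robust variance or a replicate block. Nor could it on leaving out genes under the median signal. These settings are part of the following count, which is therefore no measure of stability. Apart from leaving out arrays, 208 of 212 log2 fold changes kept their sign and 4 changed it. These were Npr3 at -0.014 with the endothelial score as a covariate, Nos2 at -0.012 with a pseudocount of 1, and Furin at 0.010 and Akt1 at 0.023 after quantile normalization. That normalization also changed the sign of 2 list medians, to 0.010 for peptide processing and clearance and 0.029 for synthase regulators. With each array left out in turn, 332 of 360 log2 fold changes kept their sign and 28 changed it, as did 10 of 60 list medians. The log2 fold change then ran from -0.050 to 0.13 for Npr2, -0.019 to 0.16 for Npr3, -0.50 to 0.091 for its probe set 1448024_at, -0.092 to 0.13 for Nos2 and -0.042 to 0.26 for Prkg1. It ran from -0.061 to 0.021 for Furin, -0.17 to 0.12 for Slc7a2, -0.27 to 0.11 for Cav3, -0.052 to 0.029 for Akt1, -0.021 to 0.35 for Gucy2e, -0.33 to 0.018 for Gucy1a1 and -0.12 to 0.033 for Gucy2c. The cause was not tested. With a replicate block 0 genes passed (lowest limma adjusted p = 0.533) and Npr1 stood at 0.78. Deviations of arrays with the same number correlated at -0.02, 0.21, -0.08, 0.18 and -0.06 for numbers 1 to 5. For numbers 2 and 4 only, the control most like the high IOP array had the same number. These values cannot decide whether equal numbers are the same mice, since arrays also differ in tissue content. The main fit took no pairing and treated the arrays as independent, although control and treated eyes came from the same animals. Signal over background is unknown, which limits Nos2, Nppb and the dim Nos1 probe set most.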

Other observations

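Markers of 4 further cell types were scored in the same arrays. The 7 measured markers of microglia and macrophages summed to 13497 to 16607 in high IOP and 14541 to 17969 in control arrays. Csf1r and C1qa, the brightest, had log2 fold changes of 0.10 and -0.02. Itgam, which encodes an integrin chain of myeloid cells, had a low signal, 8.94 to 16.8 in high IOP and 15.8 to 30.4 in control arrays, and a log2 fold change of -0.41 (limma adjusted p = 0.849). The 6 fibroblast markers, led by Col1a2 and Dcn, summed to 38078 to 43178 in high IOP and 38822 to 47524 in control arrays. Of these 2 were higher in high IOP, and Pdgfra, with the smallest p, stood at -0.12 and its other probe set at -0.56. The 6 skeletal muscle markers, led by Tnni2, summed to 731 to 1017 in high IOP and 759 to 1190 in control arrays. Actn3, with the smallest p of them, stood at 0.27. The 4 measured adipocyte markers, led by Fabp4, summed to 116 to 424 in high IOP and 104 to 342 in control arrays. Cidec, with the smallest p of them, stood at -0.08. No marker of these lists passed the limma test over all genes, as no gene did (0% called).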
